A study of Mus musculus with 41 samples.

Results

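The 10 genes described here are transcriptional targets of p53, the tumour suppressor transcription factor encoded by Trp53. They are Mdm2, Cdkn1a, Ccng1, Plk3, Bbc3, Pmaip1, Perp, Trp53inp1, Rrm2b and Tigar. They were taken by gene symbol as known p53 targets, and all 10 were found among the 51410 genes of the count tables. The choice was made with earlier results of these data known. Their counts and medians beside those of all genes are therefore descriptions. Each of the 10 passed the filter on low counts in each comparison.

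p53 is held at a low level by the ubiquitin ligase MDM2, and damage or stress relieves that control. The stabilised factor binds response elements near its targets and raises their transcription. Those targets arrest the cell cycle, start mitochondrial apoptosis, supply nucleotides and antioxidant capacity for repair, and restore MDM2, which closes a feedback loop. Embryonic stem cells (ESCs) contain abundant p53, and its targets contribute to their exit from self-renewal.

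The RNA-seq libraries were made from mouse ESCs of the R1 line, wild type (WT) or with a knockout (KO) of Caprin1, which encodes a cytoplasmic RNA-binding protein. All of them had spent 4 days in 1 µM retinoic acid, a differentiation signal, without the self-renewal cytokine LIF. They then received 2 µg/ml of the mushroom toxin α-amanitin, which inhibits RNA polymerase II, for 0, 2, 4 or 8 h. The KO lines were clone 4 and clone 2, each 1 clone, so that a difference from WT can belong to the clone. The groups were the libraries labelled clone 4 (1 library at 0 h and 2 at each later time), clone 2 (2 at each time) and WT (4 at each time). Whether replicates came from separate cultures is not stated, so p-values measure the spread between these libraries, which may be technical.

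Totals ran from 3.46 to 31.6 M counts per library (M, mega), with a mean of 18.7 M at 0 h (n = 7) and 7.16 to 8.62 M at the later times (n = 8 each), so changes are less precisely measured for low genes. Levels are given as CPM, the count over the library total, in parts per M of that total, scaled by the trimmed mean of M-values (TMM), and differences as log2 with their standard error (SE). A gene is called at a false discovery rate (FDR, the Benjamini-Hochberg adjusted p over all genes tested) under 0.05. The Caprin1 transcript had 1078 ± 98.2 CPM in the libraries labelled clone 4 (SD, n = 7), 139.9 ± 34.8 CPM in clone 2 (n = 8) and 990.0 ± 106 CPM in all WT libraries (n = 16). The libraries labelled clone 4 thus held this RNA near the WT level despite their KO label. Their log2 differences from WT were 0.28, 0.05, 0.30 and -0.11 at 0, 2, 4 and 8 h. Clone 2 was far below WT (-3.06, FDR 5.26e-08 at 0 h). Whether the protein was lost in either clone was not measured here. Directions drawn for clone 4, alone or pooled, are those of the libraries so labelled. WT libraries at 0 h fell into pairs. Replicates 1 and 2 differed from each other by a chi-square per gene of 3.62 and replicates 3 and 4 by 2.86, against 18.7 to 41.4 across the pairs. CPM give a transcript's share of the RNA, so fewer cells of a type and less RNA per cell cannot be told apart, nor can a rise be told from the loss of other RNA. The 4 times come from separate tables, and time and any processing particular to a table cannot be told apart.

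The best matches to the p53 response element in the promoters of these genes are shown first, since such elements are how p53 recognises its targets. RefSeq promoter windows of GRCm38.p6, each with 250 bases before to 50 after a gene start, were matched by symbol for 6 of the 10 genes, with 9 windows in all. Each window was searched for the best match to the p53 response element, a pair of adjacent repeats with no spacer, which reads the same on both strands. Of 32851 windows of all genes, 0.0883% held a match with at most 1 mismatch and 6.29% a match with at most 3. Capitals mark the best match of 20 bases over a gene's windows, and each sequence is given 5′ to 3′ on the strand of its gene.
Cdkn1a: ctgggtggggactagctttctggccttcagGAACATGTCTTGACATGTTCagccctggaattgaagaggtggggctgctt
Ccng1: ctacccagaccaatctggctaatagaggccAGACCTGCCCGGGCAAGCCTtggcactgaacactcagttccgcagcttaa
Bbc3: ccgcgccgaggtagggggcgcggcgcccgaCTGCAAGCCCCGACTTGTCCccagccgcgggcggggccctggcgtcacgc
Tigar: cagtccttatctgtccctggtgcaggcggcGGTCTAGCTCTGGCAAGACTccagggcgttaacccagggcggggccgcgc
The Cdkn1a stretch (chr17:29090898-29090977, + strand) held a match with 1 mismatch, 51 to 32 bases before the more upstream start. In the window of a Cdkn1a start further downstream the best match had 5 mismatches. In Ccng1 (chr11:40755432-40755511, - strand) a match with 1 mismatch lay 195 to 176 bases before the start. The Bbc3 (chr7:16309456-16309535, + strand) and Tigar (chr6:127109716-127109795, - strand) matches had 3 mismatches each, 97 to 78 and 213 to 194 bases before the start of their window's transcript. The other Bbc3 windows, further downstream, had best matches with 5 and 6 mismatches. The shares over all genes above are per window, not per gene.  The best matches in the Mdm2 and Plk3 windows had 5 mismatches each. A match is a likeness of letters and does not show that p53 was bound there in these cells, and a weaker match says nothing about elements outside it.

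Levels of the 10 transcripts spanned a wide range. They are ranked here by a deposited gene length that need not be the length of the transcript. For Plk3 it was 7007 bases, more than the whole span of the gene (chr4:117128655-117133963). The order and the overlaps below depend on that length. Per kilobase of the gene length given with the counts, Ccng1 was highest in WT at 0 h, at 236 ± 45.0 CPM per kb (SD, n = 4). It was followed by Perp at 60.9 ± 6.03, Trp53inp1 at 47.3 ± 13.1, Cdkn1a at 28.6 ± 1.82, Bbc3 at 23.6 ± 6.12 and Mdm2 at 21.0 ± 1.12 CPM per kb. Neighbours in that order overlapped within 1 SD for Perp and Trp53inp1, for Cdkn1a and Bbc3, and for Bbc3 and Mdm2. Pmaip1 (7.58 ± 1.54 CPM per kb), Tigar (7.36 ± 0.639) and Plk3 (2.13 ± 0.292) were lower. Rrm2b was lowest at 0.562 ± 0.131 CPM per kb and had 21 to 229 counts per library, so its values are the least precise of the 10.

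**Figure D1:**
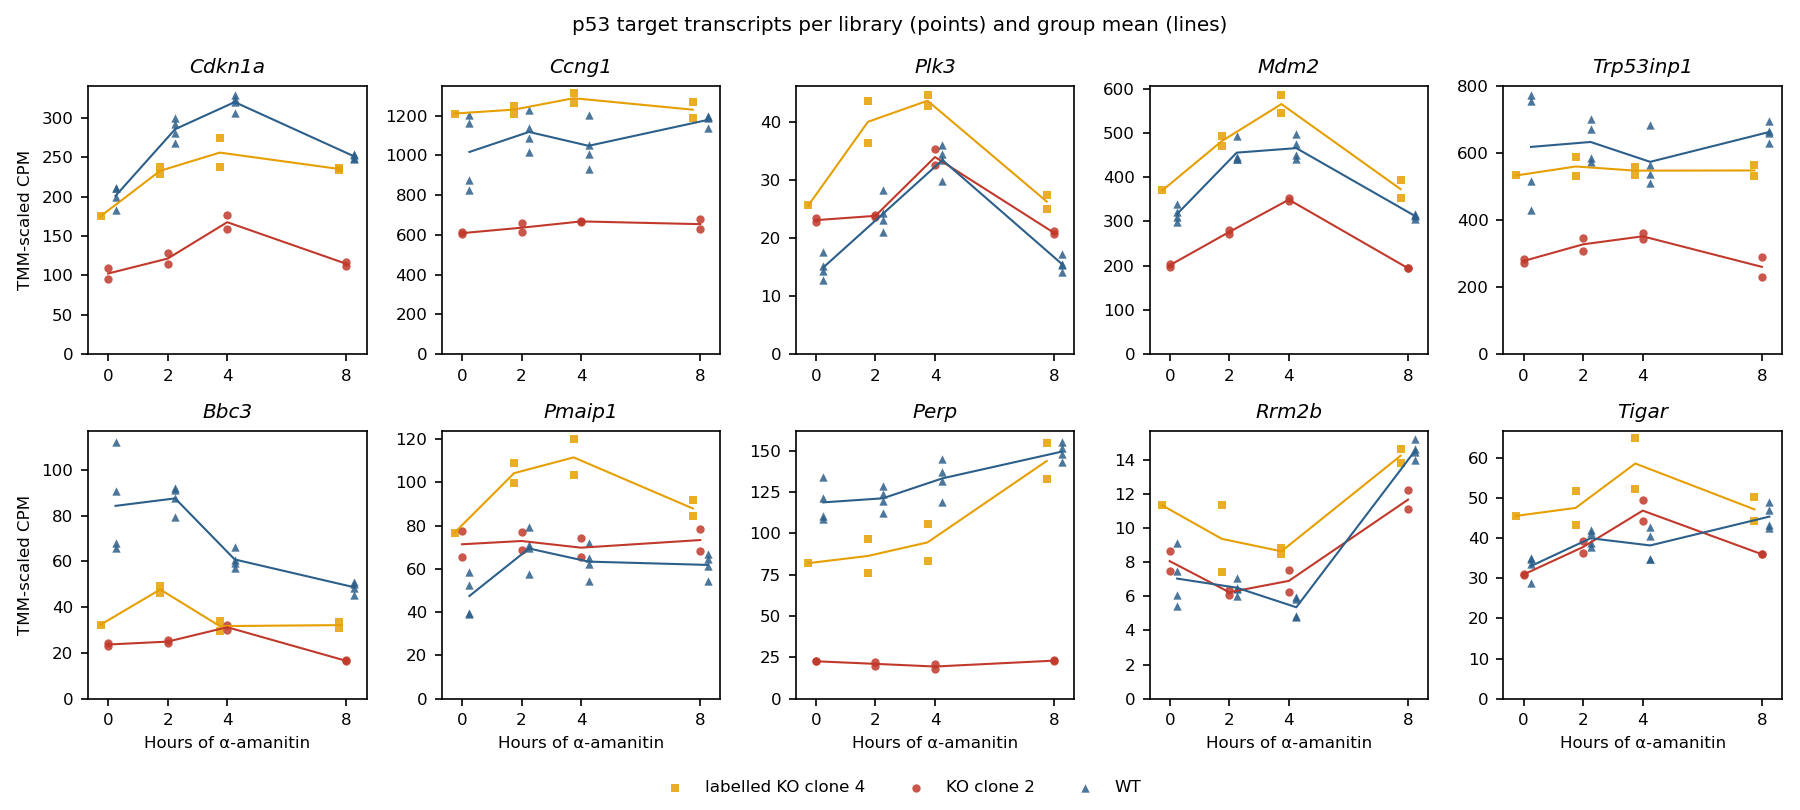
TMM-scaled CPM (y axis, from 0) against hours of α-amanitin (x axis, to scale) for each of the 10 genes; points are libraries, set slightly apart by line, and lines join group means. Perp, Ccng1, Cdkn1a, Mdm2 and Trp53inp1 in clone 2 lie below the other lines at each time, and Mdm2, Cdkn1a and Plk3 peak at 4 h.

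The first comparison asked how these transcripts stood in Caprin1 KO cells relative to WT at 0 h, that is after retinoic acid and with no α-amanitin yet. With both clones pooled, 2 of the 10 were called higher (Plk3 and Pmaip1) and 3 lower (Bbc3, Perp and Cdkn1a), where 26.1% of all genes tested were called, 13.9% higher and 12.2% lower. The median log2 difference of the 10 was -0.32, beside -0.0016 for all genes. The pooled comparison sets 3 KO libraries, 1 of them at the WT level of Caprin1, against 4 WT libraries. None of the 10 was called by edgeR without WT replicates 1 and 2, when 12 genes in all were, and 2 of the 10 were without replicates 3 and 4, when 2445 genes in all were. Single libraries moved the count as well. It was 8 without the library labelled clone 4, 3 without clone 2 replicate 1, 2 without clone 2 replicate 2, WT replicate 1 or WT replicate 2, and 3 without WT replicate 3 or 4.

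The apoptosis effector Bbc3, which encodes the BH3-only protein PUMA, was lower in both clones. Bbc3 had 32.3 CPM in the library labelled clone 4, 24.4 and 22.9 CPM in clone 2, and 112, 90.8, 67.9 and 65.9 CPM in WT. Each KO library lay below each WT library, and WT replicates 1 and 2 were higher than replicates 3 and 4. The log2 difference was -1.36, SE 0.270, FDR 0.00752 for the library labelled clone 4 and -1.81, SE 0.208, FDR 4.11e-05 for clone 2. Pooled, it was -1.66, SE 0.223, FDR 0.00335, and no omission of 1 library ended that call. It was missed without WT replicates 1 and 2 (-1.33, FDR 0.0566).

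Perp, a membrane protein of cell junctions that also serves p53-dependent apoptosis, separated the clones most. Perp had 81.9 CPM in the library labelled clone 4, 22.5 and 22.6 CPM in clone 2, and 110.4, 109, 134 and 121 CPM in WT. Clone 2 was far below WT, the library labelled clone 4 lay between, and the groups did not overlap. The log2 difference was -0.53, SE 0.143, FDR 0.03 for the library labelled clone 4 and -2.39, SE 0.122, FDR 1.45e-07 for clone 2. The pooled call (-1.49, SE 0.451, FDR 0.0433) was lost without any 1 of the WT libraries or either clone 2 library (FDR 0.0831 to 0.118).

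Trp53inp1 encodes a stress-induced protein that promotes p53 activity and autophagy. Trp53inp1 had 533 CPM in the library labelled clone 4, 273 and 283 CPM in clone 2, and 516, 429, 755 and 773 CPM in WT. Clone 2 lay below all WT libraries, while the library labelled clone 4 fell between the WT pairs, of which replicates 3 and 4 were higher. Clone 2 differed from WT by -1.15, SE 0.217, FDR 0.00135, and the library labelled clone 4 by -0.21, SE 0.269, FDR 0.62, which was not called. Pooled, the value was -0.77, SE 0.295, FDR 0.0872.

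Pmaip1, which encodes the BH3-only protein NOXA, ran the other way. Pmaip1 had 76.7 CPM in the library labelled clone 4, 65.4 and 77.4 CPM in clone 2, and 39.1, 39.7, 52.4 and 58.6 CPM in WT. All KO libraries were above all WT libraries. The log2 difference was 0.69, SE 0.199, FDR 0.0407 for the library labelled clone 4, 0.58, SE 0.159, FDR 0.0117 for clone 2 and 0.62, SE 0.158, FDR 0.0233 pooled. The clone 4 call was lost without WT replicate 1 (FDR 0.0775), the clone 2 call without clone 2 replicate 2 (FDR 0.12), and the pooled call without clone 2 replicate 2, WT replicate 1 or WT replicate 2 (FDR 0.061 to 0.0831).

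Among the arrest genes, Cdkn1a encodes p21, the cyclin-dependent kinase inhibitor that carries much of the arrest by p53. Cdkn1a had 175 CPM in the library labelled clone 4, 109 and 95.1 CPM in clone 2, and 210.4, 211, 199 and 183 CPM in WT. Both clone 2 libraries lay far below WT. The library labelled clone 4 was just below the lowest WT library. Clone 2 differed from WT by -0.97, SE 0.108, FDR 3.27e-05 and the library labelled clone 4 by -0.19, SE 0.135, FDR 0.353. The pooled call (-0.67, SE 0.200, FDR 0.0391) was lost without any 1 of the WT libraries or either clone 2 library (FDR 0.0627 to 0.134).

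Ccng1 encodes cyclin G1, a partner of protein phosphatase PP2A that acts on MDM2 and p53. Ccng1 had 1209.8 CPM in the library labelled clone 4, 615 and 601 CPM in clone 2, and 876, 824, 1203 and 1163 CPM in WT. Clone 2 lay below each WT library, and the library labelled clone 4 was above each of them. Clone 2 differed from WT by -0.73, SE 0.156, FDR 0.00279 and the library labelled clone 4 by 0.26, SE 0.191, FDR 0.382. Plk3, a stress-activated polo-like kinase, was higher in both clones. Plk3 had 25.7 CPM in the library labelled clone 4, 22.7 and 23.5 CPM in clone 2, and 15.2, 17.6, 14.3 and 12.7 CPM in WT. The KO libraries did not overlap with WT. The log2 difference was 0.78, SE 0.173, FDR 0.0133 for the library labelled clone 4, 0.63, SE 0.139, FDR 0.00357 for clone 2 and 0.68, SE 0.145, FDR 0.0124 pooled. The pooled value without WT replicates 1 and 2 was 0.83, FDR 0.0576, and without replicates 3 and 4 it was 0.54, FDR 0.0576.

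Mdm2, the ubiquitin ligase of the feedback loop, followed Ccng1 in its order of lines. Mdm2 had 370.0 CPM in the library labelled clone 4, 204 and 197 CPM in clone 2, and 299, 309.7, 338 and 321 CPM in WT. Clone 2 lay below and the library labelled clone 4 above the WT range. Clone 2 differed from WT by -0.65, SE 0.0952, FDR 0.000226, and the library labelled clone 4 by 0.23, SE 0.117, FDR 0.209. 

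The metabolic targets were compared in the same way. Tigar, a sugar bisphosphatase that directs glucose away from glycolysis, had 45.6 CPM in the library labelled clone 4, 30.9 and 31 CPM in clone 2, and 28.9, 33.5, 34.9 and 35.1 CPM in WT. The library labelled clone 4 stood alone above the others. Its difference from WT was 0.45, SE 0.137, FDR 0.0476, a call lost without WT replicate 1 or 3 (FDR 0.056 to 0.059), and that of clone 2 was -0.10, SE 0.111, FDR 0.481. Rrm2b, the p53-induced small subunit of ribonucleotide reductase, had 11.3 CPM in the library labelled clone 4, 7.47 and 8.67 CPM in clone 2, and 5.45, 6.09, 7.50 and 9.14 CPM in WT. Clone 2 and WT overlapped, and neither clone was called (log2 difference 0.66, SE 0.229, FDR 0.0746 for clone 4 and 0.16, SE 0.186, FDR 0.503 for clone 2).

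Counted by clone, the library labelled clone 4 had 3 of the 10 called higher and 2 lower than WT, where 15.9% of genes were called, 9.28% higher and 6.60% lower. Clone 2 had 2 called higher and 6 lower, where 45.2% were called, 22.9% higher and 22.3% lower. The median log2 difference of the 10 was 0.24 for clone 4 and -0.69 for clone 2, beside -0.023 and 0.00057 for all genes. Both clones are set against the same WT libraries, so these comparisons are not independent. With 1 library at 0 h, the arm labelled clone 4 has no spread of its own and is assumed to vary like clone 2 and WT. Leaving out WT pairs raised the calls over all genes as well as over the 10. Without WT replicates 1 and 2, 8 of the 10 were called for clone 4 and 9 for clone 2, where 6652 and 10347 genes in all were called, against 2719 and 7740 with all libraries. Without replicates 3 and 4 the numbers of the 10 were 9 and 9, where 7919 and 10141 genes in all were called. The clone 4 count was 3 without WT replicate 1. Set directly against each other at 0 h, the library labelled clone 4 was called higher than clone 2 for Perp, Ccng1, Trp53inp1, Mdm2, Cdkn1a and Tigar, where 23.9% of genes were called, 13.4% higher and 10.5% lower. The largest of these differences was 1.86, SE 0.148, FDR 1.28e-05 for Perp, followed by 0.99, SE 0.207, FDR 0.00554 for Ccng1. The calls of Trp53inp1 (FDR 0.108 to 0.135) and Tigar (FDR 0.122 to 0.126) were lost without either clone 2 library. Plk3, Pmaip1, Bbc3 and Rrm2b did not pass, with log2 differences of 0.15, 0.10, 0.45 and 0.50.

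Markers of other cell types moved with the lines. All 6 fibroblast feeder markers were called higher in the library labelled clone 4 than in clone 2 at 0 h, and their summed level over all times was 2465 to 2989.9 CPM in the libraries labelled clone 4, 608 to 877 CPM in clone 2 and 835 to 1447 CPM in WT. The members of this list did not move together between clone 2 and WT: against WT at 0 h, 4 of the 6 were called higher and 2 lower in clone 2, where Fbln2 averaged 184 ± 15.2 CPM against 66.0 ± 6.95 CPM in WT and Col3a1 45.2 ± 12.5 CPM against 314 ± 40.1 CPM in WT (all times; SD, n = 8 and n = 16). Col3a1 averaged 238 ± 14.4 CPM in the libraries labelled clone 4 (n = 7). Of 6 parietal endoderm markers, 5 were called lower in the library labelled clone 4 than in clone 2. Their sums were 14762 to 19289 CPM in the libraries labelled clone 4, 40263 to 47969.7 CPM in clone 2 and 10041 to 12405 CPM in WT. The 6 ESC markers summed to 562 CPM in the library labelled clone 4, 753 to 813 CPM in clone 2 and 418 to 509 CPM in WT at 0 h, and each of them, Pou5f1, Sox2 and Nanog included, was detected in each library. Dppa5a made up much of that sum, at 319 ± 91.9 CPM in clone 2 against 141 ± 36.0 CPM in WT over all times. Pou5f1 (125 ± 15.4 against 73.6 ± 10.2 CPM) and Zfp42 (60.0 ± 9.98 against 37.4 ± 5.64 CPM) were higher in clone 2 too. Nanog differed little (56.3 ± 18.2 against 51.9 ± 10.1 CPM), and Sox2 and Esrrb were lower. Sox2 averaged 53 ± 10.1 CPM in clone 2 against 66.8 ± 6.84 CPM in WT, and Esrrb 36.3 ± 4.24 CPM against 46.6 ± 6.75 CPM (SD, n = 8 and n = 16). The 6 epithelial markers are the class in which Perp is best known. At 0 h they summed to 949 to 1159.9 CPM in WT. Their sum was 770.5 CPM in the library labelled clone 4 and 786 to 794 CPM in clone 2. Krt5 had at most 0.462 CPM in any library. The members of this list did not move together either. Pooled KO minus WT at 0 h was 0.67 for Epcam, against -0.23 for Krt8, -0.53 for Cdh1, -0.91 for Krt18 and -2.68 for the low Trp63 (log2). For the library labelled clone 4 minus WT, Epcam was at 0.32 and Cdh1 at 0.03. Krt8, Krt18 and Trp63 were at -0.55, -0.92 and -1.19 there. The 4 blood markers summed to at most 6.05 CPM in any library, with Hbb-bs at 0 in all 31 and Ptprc at 0 in 22. The part of cell composition in the differences of the 10 genes was not tested.

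**Figure D2:**
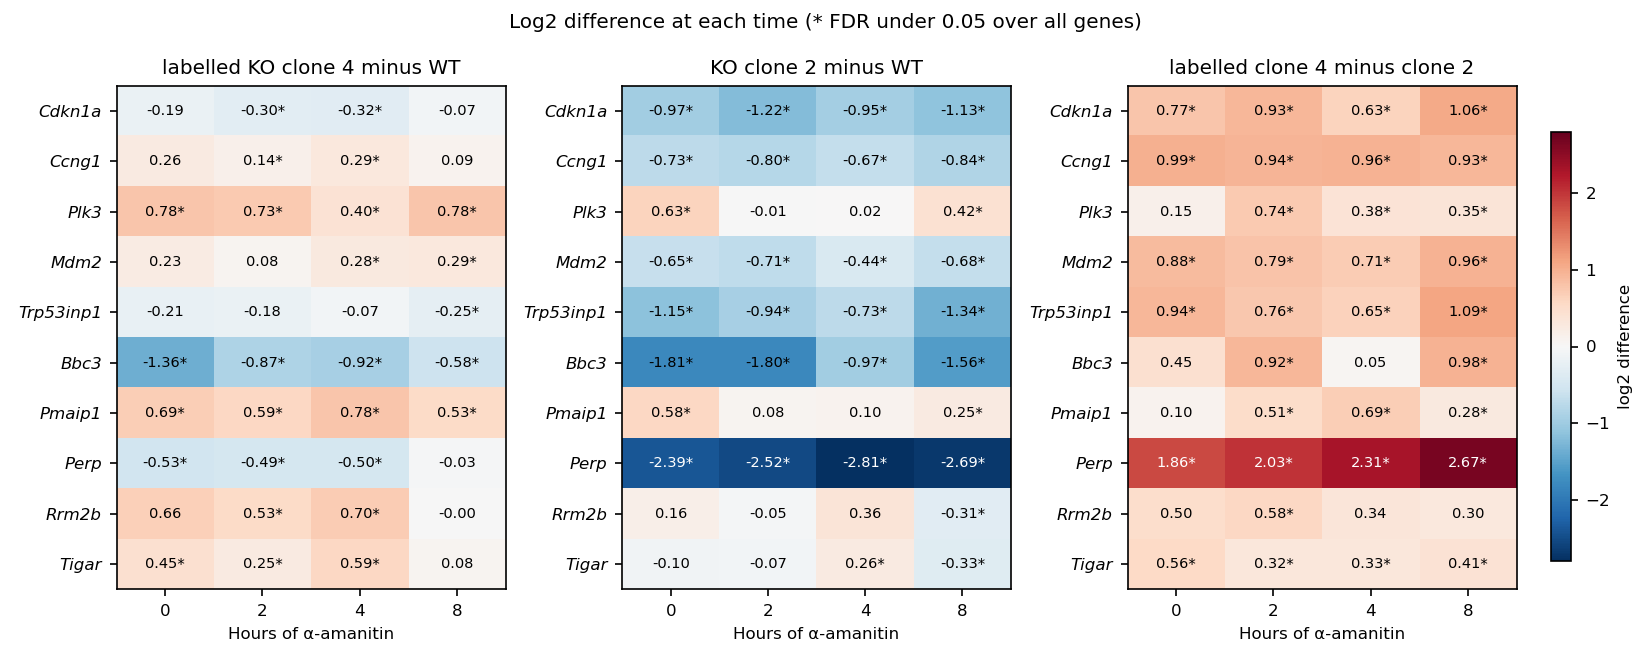
Log2 differences of the 10 genes (rows) at each time (columns) for the libraries labelled clone 4 minus WT, clone 2 minus WT, and labelled clone 4 minus clone 2; an asterisk marks an FDR under 0.05 over all genes. After drug addition Perp lies between -0.50 and -0.03 in the libraries labelled clone 4 and between -2.81 and -2.52 in clone 2, and all values of the third panel are above 0.

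The same lines were compared at 2, 4 and 8 h of α-amanitin, to ask whether the differences persisted once new transcription was meant to be blocked. In clone 2, Cdkn1a, Ccng1, Mdm2, Bbc3, Perp and Trp53inp1 were called lower than WT at each of these times, as they were at 0 h. The number called lower was 6 of 10 at 2 h, 6 at 4 h and 8 at 8 h, where 30.0%, 30.8% and 31.8% of all genes were called lower. The numbers called higher were 0, 1 and 2, where 31.8%, 31.1% and 31.7% were. With 61.8%, 61.9% and 63.6% of genes called in either direction, a call alone sets a gene little apart in this comparison. The Perp difference was the largest of the 10 at each time, at -2.52, -2.81 and -2.69.

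At 8 h, Perp had 133 and 155 CPM in the libraries labelled clone 4, 22.8 and 23.1 CPM in clone 2, and 155, 148, 151 and 143 CPM in WT. Clone 2 was far below both other lines, and the libraries labelled clone 4 overlapped with WT. The difference of the libraries labelled clone 4 from WT was -0.03, SE 0.0535, FDR 0.726 at that time, against -0.50, SE 0.0813, FDR 1.05e-05 at 4 h. Bbc3 had 30.8 and 33.4 CPM in the libraries labelled clone 4, 16.7 and 16.3 CPM in clone 2, and 48.3, 50.9, 45.2 and 50.3 CPM in WT at 8 h. The 3 lines did not overlap. It was called lower than WT at each time in the libraries labelled clone 4 (-0.87, -0.92 and -0.58 at 2, 4 and 8 h) and in clone 2 (-1.80, -0.97 and -1.56), and each of these 6 calls held with any 1 library left out.

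In the libraries labelled clone 4, 5 of the 10 were called higher than WT at 2 h, 6 at 4 h and 3 at 8 h, where 21.7%, 24.6% and 20.4% of genes were. In either direction 41.3%, 47.1% and 37.5% of genes were called. The numbers called lower were 3, 3 and 2, where 19.6%, 22.5% and 17.1% of genes were. Cdkn1a was among them at 2 h (-0.30, FDR 3.76e-05) and 4 h (-0.32, FDR 0.000227), and both calls held with any 1 library left out. It was not called at 8 h (-0.07). Plk3 and Pmaip1 were called higher at each time. At 4 h Pmaip1 had 103 and 119.9 CPM in the libraries labelled clone 4, 65.5 and 74.1 CPM in clone 2, and 62.1, 54.2, 65.2 and 72.0 CPM in WT. The libraries labelled clone 4 stood above all others, while clone 2 and WT overlapped. The difference from WT was 0.78, SE 0.0830, FDR 7.92e-09 in the libraries labelled clone 4 and 0.10, SE 0.0888, FDR 0.347 in clone 2. Rrm2b was higher in the libraries labelled clone 4 at 2 h (0.53, SE 0.186, FDR 0.0175) and at 4 h (0.70, SE 0.176, FDR 0.00164), and the 2 h value without clone 4 replicate 1 had an FDR of 0.63. The 2 h call of Tigar was lost without clone 4 replicate 2 (FDR 0.509), and that of Ccng1 without either clone 4 library or WT replicate 1, 2 or 4 (FDR 0.0559 to 0.279). Trp53inp1 was called lower at 8 h (-0.25, SE 0.0641, FDR 0.00513), a call lost without clone 4 replicate 1 (FDR 0.11).

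The genes that were higher in the libraries labelled clone 4 gave mixed values in clone 2. Plk3 in clone 2 was at -0.01 (FDR 0.959) and 0.02 (FDR 0.866) at 2 and 4 h, and was called at 8 h (0.42, SE 0.107, FDR 0.000636). Pmaip1 was called at 8 h (0.25, SE 0.0702, FDR 0.00169), but not without clone 2 replicate 2 (FDR 0.142). Tigar was called higher at 4 h (0.26, SE 0.103, FDR 0.0301), a call lost without clone 2 replicate 2, WT replicate 2 or WT replicate 3 (FDR 0.0606 to 0.273), and lower at 8 h (-0.33, SE 0.0802, FDR 0.000405). Rrm2b was called lower at 8 h (-0.31, SE 0.122, FDR 0.0251), a call lost without clone 2 replicate 1 or WT replicate 2 (FDR 0.0619 to 0.172).

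Set against clone 2, the libraries labelled clone 4 were called higher for all 10 genes at 2 h, for 8 at 4 h and for 9 at 8 h, where 25.0%, 24.8% and 30.0% of genes were called higher (23.7%, 22.9% and 28.5% lower, 48.7%, 47.6% and 58.4% in either direction). The median log2 difference of the 10 was 0.78, 0.64 and 0.95, beside -0.00405, 0.00312 and 0.00145 for all genes. Ccng1 was the steadiest, at 0.94, 0.96 and 0.93, and Perp the furthest apart, at 2.03, 2.31 and 2.67. The exceptions at 4 h were Bbc3 (0.05, SE 0.112, FDR 0.757) and Rrm2b (0.34, SE 0.195, FDR 0.16), and at 8 h Rrm2b (0.30, SE 0.138, FDR 0.0553). Calls that hung on 1 library were those of Rrm2b at 2 h (clone 4 replicate 1 or either clone 2 library, FDR 0.0603 to 0.533), Tigar at 2 h (clone 4 replicate 2 or clone 2 replicate 1, FDR 0.0842 to 0.263) and 4 h (clone 4 replicate 2 or clone 2 replicate 1, FDR 0.189 to 0.312), Plk3 at 4 h (clone 4 replicate 1 or clone 2 replicate 2, FDR 0.0528 to 0.0605) and 8 h (clone 4 replicate 2 or clone 2 replicate 2, FDR 0.0516 to 0.082), and Pmaip1 at 8 h (clone 4 replicate 2 or clone 2 replicate 1, FDR 0.0511 to 0.0789).

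With the clones pooled, fewer of the 10 were called at the later times, in a fit whose error includes the spread between clones. At 2 h Bbc3 was called (-1.27, SE 0.233, FDR 0.00605), 1 of 10 where 31.5% of genes were called, 17.0% higher and 14.6% lower. At 4 h Bbc3 and Cdkn1a were called lower (-0.96 and -0.61) and Rrm2b and Tigar higher (0.53 and 0.45), where 36.3% of genes were called, 19.4% higher and 16.9% lower. Without WT replicate 1, 2 or 3 only Bbc3 was called, and the Rrm2b call was also lost without either clone 4 library or clone 2 replicate 1 (over these omissions, FDR 0.0514 to 0.098). At 8 h Plk3 (0.62) and Pmaip1 (0.40) were called higher and Bbc3 lower (-0.98), where 17.3% of genes were called, 10.3% higher and 7.06% lower. None of these 8 h calls held without WT replicate 1, 2 or 3. Without WT replicate 4 or clone 2 replicate 2, Bbc3 and Pmaip1 lost theirs, as Bbc3 did without clone 2 replicate 1 and Pmaip1 without clone 4 replicate 1 (FDR 0.0555 to 0.103 over all of them). The pooled 2 h count was 2 without clone 2 replicate 1 or clone 4 replicate 1, and 4 without clone 4 replicate 2. Counted by the libraries alone, all KO libraries were above all WT libraries for 2, 0, 2 and 2 of the 10 at 0, 2, 4 and 8 h, where 19.0%, 17.9%, 20.6% and 13.9% of genes were. They were below all WT libraries for 3 of the 10 at each time, where 18.4%, 18.4%, 19.0% and 17.1% of genes were.

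The second comparison followed each line over the hours of α-amanitin, relative to 0 h. The libraries labelled clone 4 had 3, 5 and 2 of the 10 called higher at 2, 4 and 8 h and none called lower, where 6.32%, 23.1% and 19.5% of genes were called (3.57%, 12% and 8.57% higher, 2.75%, 11.2% and 10.9% lower). Clone 2 had 2, 5 and 1 called higher and 0, 0 and 1 called lower, where 11.8%, 42.1% and 28.4% were called (6.04%, 20.3% and 12.6% higher, 5.81%, 21.8% and 15.8% lower). In WT, 5 of the 10 were called higher and none lower at 2 h, 5 higher and 2 lower at 4 h, and 6 higher and 1 lower at 8 h, where 27.7%, 52.2% and 51.1% of genes were called (14.1%, 24.8% and 25.7% higher, 13.7%, 27.4% and 25.4% lower). Without WT replicates 1 and 2 at 0 h, 5, 7 and 5 of the 10 were called in WT at 2, 4 and 8 h in either direction, where 4570, 8265 and 7291 genes in all were called, against 4396, 8275 and 8097 with all libraries. Without replicates 3 and 4 at 0 h the numbers of the 10 were 8, 9 and 8, where 6679, 8865 and 9173 genes in all were called. The clone 4 count was 1 at 2 h without its replicate 1 at that time and 3 at 4 h without its replicate 2 at that time. The clone 2 count was 1 at 2 h without its replicate 2 at 0 h or 1 at 2 h, and at 8 h it was 0 without its replicate 1 at 0 h or 2 at 8 h and 1 without its replicate 1 at 8 h. The median log2 change of the 10 at 4 h was 0.28 in the libraries labelled clone 4, 0.37 in clone 2 and 0.18 in WT, beside -0.018, -0.062 and -0.041 for all genes. A rise here is a rise in share of the remaining RNA, and whether the drug had blocked transcription was not measured. The 4 h values may also differ by table. The ribosomal protein genes Rpl5 and Rpl11 ran from 5.09 to 397 and from 5.08 to 307 CPM over the WT libraries. Their SE in pooled KO against WT was 0.222 and 0.225 at 4 h. It was 0.0591 and 0.0597 at 2 h, and 0.0783 and 0.0768 at 8 h. Whether this bears on the 4 h values of the 10 genes was not tested. The 6 retinoic acid response genes, whose summed level in WT was 136 to 147 CPM at 8 h, against 698 to 736 CPM at 0 h, were all called lower at 8 h in each line.

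**Figure D3:**
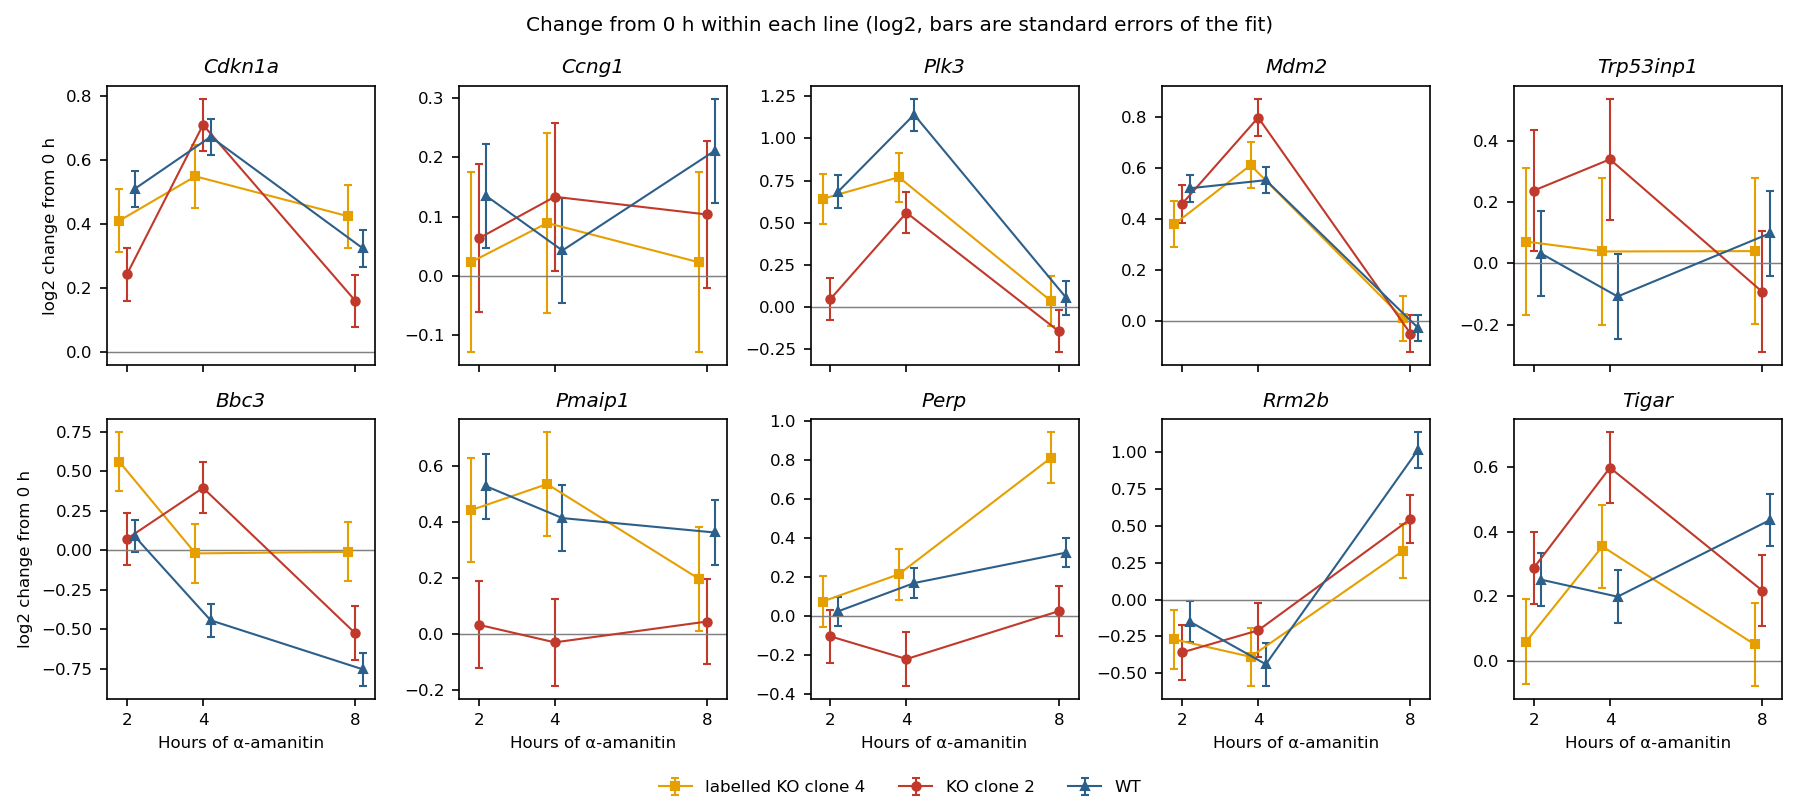
Log2 change from 0 h (y axis, its own scale in each panel) against hours of α-amanitin (x axis, to scale) in the libraries labelled clone 4, clone 2 and WT; points are set slightly apart by line and bars are standard errors of the fit. Mdm2 rises by 0.61, 0.80 and 0.55 at 4 h in these lines and is back near 0 at 8 h, while Rrm2b is highest at 8 h.

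Mdm2 rose and then fell in each line. In the libraries labelled clone 4 it had 370.0 CPM at 0 h, 493 and 471 CPM at 2 h, 587 and 544 CPM at 4 h and 353 and 393 CPM at 8 h. In clone 2 it had 204 and 197 CPM at 0 h, 271 and 282 CPM at 2 h, 345 and 353 CPM at 4 h and 194 and 194 CPM at 8 h. In WT it had 299, 309.7, 338 and 321 CPM at 0 h, 441, 447, 493 and 441 CPM at 2 h, 449.9, 475, 441 and 497 CPM at 4 h and 313, 316, 304 and 313 CPM at 8 h. In each line the 4 h libraries were all above those at 0 h and at 8 h. At 4 h the change from 0 h was 0.61, SE 0.0913, FDR 3.55e-06 in the libraries labelled clone 4, 0.80, SE 0.0740, FDR 5.13e-11 in clone 2 and 0.55, SE 0.0522, FDR 4.43e-11 in WT. From 4 h to 8 h it fell, with a log2 change of -0.60, SE 0.0735, FDR 6.08e-08 in the libraries labelled clone 4, -0.85, SE 0.0751, FDR 2.05e-11 in clone 2 and -0.58, SE 0.0525, FDR 2.4e-11 in WT. At 8 h it did not differ from 0 h beyond error in any line (0.01, -0.05 and -0.03). The calls at 2 h (0.38, 0.46 and 0.52 in the same order of lines) all passed, though that of clone 4 was lost without clone 4 replicate 1 at 2 h (FDR 0.0673).

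Cdkn1a rose in each line to its highest level at 4 h. In the libraries labelled clone 4 it had 175 CPM at 0 h, 237 and 228 CPM at 2 h, 274 and 237 CPM at 4 h and 236 and 234 CPM at 8 h. In clone 2 it had 109 and 95.1 CPM at 0 h, 129 and 114 CPM at 2 h, 176 and 158 CPM at 4 h and 117 and 112 CPM at 8 h. In WT it had 210.4, 211, 199 and 183 CPM at 0 h, 281, 292, 268 and 300.3 CPM at 2 h, 324, 329, 320.3 and 307 CPM at 4 h and 247.9, 254, 253 and 249.5 CPM at 8 h. The WT libraries did not overlap between any of the 4 times, and clone 2 at its 4 h peak remained below the WT libraries at 0 h. At 4 h the change from 0 h was 0.55, SE 0.0990, FDR 6.84e-05 in the libraries labelled clone 4, 0.71, SE 0.0815, FDR 7.06e-09 in clone 2 and 0.67, SE 0.0569, FDR 2.91e-12 in WT. At 8 h it was 0.43, SE 0.0984, FDR 0.00194 in the libraries labelled clone 4, 0.16, SE 0.0819, FDR 0.142 in clone 2, which did not pass, and 0.32, SE 0.0568, FDR 1.33e-05 in WT. The 2 h changes of 0.41 in the libraries labelled clone 4, 0.24 in clone 2 and 0.51 in WT were each called. The call in clone 4 was lost without its replicate 1 at 2 h (FDR 0.0657), and the call in clone 2 without its replicate 1 at 2 h or replicate 2 at 0 h (FDR 0.452 to 0.46).

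Plk3 had the largest change at 4 h in WT of the 10 genes. In the libraries labelled clone 4 it had 25.7 CPM at 0 h, 36.5 and 43.7 CPM at 2 h, 44.7 and 42.8 CPM at 4 h and 25.1 and 27.5 CPM at 8 h. In clone 2 it had 22.7 and 23.5 CPM at 0 h, 24.0 and 23.7 CPM at 2 h, 35.4 and 32.6 CPM at 4 h and 21.2 and 20.7 CPM at 8 h. In WT it had 15.2, 17.6, 14.3 and 12.7 CPM at 0 h, 28.4, 21.0, 23.1 and 24.3 CPM at 2 h, 33.5, 36.0, 34.6 and 29.9 CPM at 4 h and 15.4, 15.5, 14.2 and 17.3 CPM at 8 h. Each WT library at 4 h was above each at 0, 2 or 8 h, and the same held between 4 h and 0 or 8 h in both KO lines. At 4 h the change was 0.77, SE 0.145, FDR 0.000127 in the libraries labelled clone 4, 0.56, SE 0.122, FDR 0.000306 in clone 2 and 1.14, SE 0.0947, FDR 1.78e-12 in WT. At 2 h it was 0.64, SE 0.147, FDR 0.00483 in the libraries labelled clone 4, 0.05, SE 0.127, FDR 0.885 in clone 2, which did not pass, and 0.68, SE 0.0982, FDR 1.23e-06 in WT. The 2 h call in clone 4 was lost without its replicate 2 at 2 h (FDR 0.105). By 8 h no line was called (0.04, -0.14 and 0.05 in the libraries labelled clone 4, clone 2 and WT).

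Ccng1 was not called in either KO line at any time, with log2 changes of 0.02 in the libraries labelled clone 4 and 0.10 in clone 2 at 8 h. In WT it was called at 8 h (0.21, SE 0.0879, FDR 0.0462). That call was lost without WT replicate 1 or 2 at 0 h or any 1 of the WT libraries at 8 h (FDR 0.0535 to 0.205), and without WT replicates 1 and 2 at 0 h the change was -0.01.

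Among the apoptosis genes, Bbc3 was the one that fell in WT. In the libraries labelled clone 4 it had 32.3 CPM at 0 h, 46.4 and 49.0 CPM at 2 h, 33.9 and 29.4 CPM at 4 h and 30.8 and 33.4 CPM at 8 h, and its changes of 0.56, -0.02 and -0.01 at 2, 4 and 8 h were not called. In clone 2 it had 24.4 and 22.9 CPM at 0 h, 25.5 and 24.4 CPM at 2 h, 30.1 and 32.3 CPM at 4 h and 16.7 and 16.3 CPM at 8 h. Clone 2 was thus highest at 4 h and lowest at 8 h. Its change was 0.40, SE 0.162, FDR 0.05 at 4 h, just under the threshold before rounding and lost without any 1 of the 4 libraries (FDR 0.089 to 0.22). At 8 h it was -0.53, SE 0.172, FDR 0.0222, a call lost without replicate 1 at 0 h or either library at 8 h (FDR 0.0929 to 0.132). In WT the mean was 84.2 ± 21.9 CPM at 0 h, 87.5 ± 5.82 CPM at 2 h, 60.8 ± 3.85 CPM at 4 h and 48.7 ± 2.56 CPM at 8 h (SD, n = 4 each). Each WT library at 8 h was below each at 0 h. The WT change was -0.44, SE 0.105, FDR 0.000782 at 4 h and -0.75, SE 0.105, FDR 8.68e-07 at 8 h. The WT pairs at 0 h differed for this gene, and without WT replicates 3 and 4 at 0 h the 2 h change of Bbc3, 0.09 with all libraries, was -0.17 (FDR 0.0467).

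Pmaip1 was called higher at 4 h than at 0 h in the libraries labelled clone 4 (0.54, SE 0.186, FDR 0.0382), though not without their replicate 2 at 4 h (FDR 0.18). In clone 2 its changes lay between -0.03 and 0.04, with no call. In WT it was called higher at each time (0.53, 0.41 and 0.36 at 2, 4 and 8 h), and the 8 h call was lost without WT replicate 2 at 0 h (FDR 0.0594). Without WT replicates 1 and 2 at 0 h, the WT change was 0.23, FDR 0.0964 at 4 h and 0.17, FDR 0.229 at 8 h. Perp had 133 and 155 CPM at 8 h in the libraries labelled clone 4, against 81.9 CPM in the 1 library at 0 h, a change of 0.81, SE 0.131, FDR 2.76e-05. In clone 2 the change at 8 h was 0.02, SE 0.129, FDR 0.915, and in WT it was 0.32, SE 0.0745, FDR 0.000473. Trp53inp1 was not called over time in any line, and its largest value was 0.34, SE 0.198, FDR 0.18 in clone 2 at 4 h. Without WT replicates 3 and 4 at 0 h, its WT change at 4 h was 0.29 (FDR 0.0364), against -0.11 with all libraries.

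Of the metabolic targets, Rrm2b changed late. In the libraries labelled clone 4 it had 11.3 CPM at 0 h, 11.3 and 7.42 CPM at 2 h, 8.81 and 8.47 CPM at 4 h and 14.7 and 13.8 CPM at 8 h. In clone 2 it had 7.47 and 8.67 CPM at 0 h, 6.39 and 6.09 CPM at 2 h, 7.55 and 6.27 CPM at 4 h and 11.1 and 12.2 CPM at 8 h. In WT it had 5.45, 6.09, 7.50 and 9.14 CPM at 0 h, 6.42, 6.03, 7.08 and 6.50 CPM at 2 h, 4.81, 5.86, 4.83 and 5.94 CPM at 4 h and 14.0, 15.2, 14.7 and 14.5 CPM at 8 h. In each line the 8 h libraries were above all earlier ones. From 4 h to 8 h, a step added after the data were seen, the change was 0.72, SE 0.177, FDR 0.00196 in the libraries labelled clone 4, 0.76, SE 0.191, FDR 0.00176 in clone 2 and 1.45, SE 0.142, FDR 1.38e-10 in WT, and these calls held with any 1 library left out. From 0 h to 8 h it was 0.33, SE 0.185, FDR 0.221 in the libraries labelled clone 4, which did not pass, 0.55, SE 0.161, FDR 0.00952 in clone 2 and 1.02, SE 0.120, FDR 1.22e-08 in WT. The clone 2 call was lost without its replicate 1 at 0 h or replicate 2 at 8 h (FDR 0.119 to 0.123). At 4 h WT was lower than at 0 h (-0.44, SE 0.147, FDR 0.0121), a call lost without WT replicate 4 at 0 h (FDR 0.0667).

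Tigar was called higher at 4 h than at 0 h in the libraries labelled clone 4 (0.35, SE 0.129, FDR 0.0424) and in clone 2 (0.60, SE 0.11, FDR 3.29e-05), and the call in clone 4 was lost without its replicate 2 at 4 h (FDR 0.382). In WT it was called higher at each time, most at 8 h, where its mean was 45.4 ± 3.08 CPM against 33.1 ± 2.87 CPM at 0 h (SD, n = 4 each; 0.44, SE 0.0797, FDR 2.53e-05). The WT calls at 2 h (0.25) and 4 h (0.20) were lost without WT replicate 2 or 3 at 2 h (FDR 0.0556 to 0.0671), and without WT replicate 1 or 2 at 0 h or replicate 1 or 4 at 4 h (FDR 0.0609 to 0.216). From 4 h to 8 h Tigar was called lower in the libraries labelled clone 4 (-0.30) and in clone 2 (-0.38) and higher in WT (0.24). These calls were lost without replicate 2 of clone 4 at 4 or 8 h (FDR 0.27 to 0.461), without replicate 2 of clone 2 at 4 h (FDR 0.115), and without WT replicate 2 or 3 at 4 h or 2 or 4 at 8 h (FDR 0.05 to 0.0967). Whether these opposite changes differ between lines was not tested.

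Over the step from 4 h to 8 h as a whole, the libraries labelled clone 4 had 2 of the 10 called higher and 3 lower, clone 2 had 1 higher and 5 lower, and WT had 2 higher and 4 lower, where 31.2%, 38.1% and 45.2% of genes were called (14.0%, 17.9% and 22.4% higher, 17.2%, 20.2% and 22.9% lower). Plk3 was lower at 8 h than at 4 h in each line (-0.73, -0.70 and -1.09), and each of these calls held with any 1 library left out. Cdkn1a was called lower in clone 2 (-0.55) and WT (-0.35), and not in the libraries labelled clone 4 (-0.12, SE 0.0802, FDR 0.251). Bbc3 was called lower in clone 2 (-0.92, SE 0.184, FDR 0.000198) and in WT (-0.31, SE 0.11, FDR 0.0226), where the WT call was lost without WT replicate 2 at 4 h or replicate 3 at 8 h (FDR 0.058 to 0.0641).

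The third comparison tested whether the change over 8 h differed between lines, which asks how transcripts decline or persist under α-amanitin in the lines labelled KO and in WT. The libraries labelled clone 4 held Caprin1 RNA near the WT level, and whether their label is wrong or their knockout leaves the RNA in place was not tested. Of the 10 genes, 1 was called for the libraries labelled clone 4 against WT, none for clone 2 against WT and 1 for the mean of the clones against WT, where 4.09%, 7.42% and 8.01% of genes were called (1.81%, 3.00% and 2.93% with a larger change, 2.28%, 4.42% and 5.07% with a smaller one). For clone 2, where edgeR called 0, 1 of the 10 had an unadjusted p under 0.05 and DESeq2 called 0. The change of Bbc3 in the libraries labelled clone 4 exceeded that in WT by 0.74, SE 0.216, FDR 0.0475 (its log2 change was -0.01 there and -0.75 in WT). The call was lost without either clone 4 library at 8 h, WT replicate 2 at 0 h or any 1 of the WT libraries at 8 h (FDR 0.0583 to 0.145). The change of Rrm2b in the mean of the clones minus that in WT was -0.58, SE 0.171, FDR 0.032. That call was lost without either clone 4 library at 8 h, clone 2 replicate 2 at 0 h or 1 at 8 h, WT replicate 1 or 2 at 0 h, or WT replicate 2 or 3 at 8 h (FDR 0.0503 to 0.0875). For Mdm2 the differences in change were 0.04 (SE 0.103) and -0.02 (SE 0.0907) for the libraries labelled clone 4 and for clone 2, and for Cdkn1a 0.10 (SE 0.113) and -0.16 (SE 0.0996). These counts moved with the WT libraries at 0 h, as did those over all genes. Without WT replicates 3 and 4 at 0 h, 5, 6 and 6 of the 10 were called for clone 4, clone 2 and the mean of the clones, where 4974, 4945 and 5705 genes in all were called, against 649, 1176 and 1269 with all libraries. Without replicates 1 and 2 at 0 h, 2, 0 and 0 of the 10 were called in the same order, and 776, 1348 and 869 genes in all. With single WT libraries at 0 h left out, the clone 4 count was 2 without replicate 1 or 3 and 3 without replicate 4, the clone 2 count 1 without replicate 4, and the count for the mean of the clones 2 without replicate 3 or 4.

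The transcript of p53 itself was lower than WT in clone 2 at each time, and in the libraries labelled clone 4 at 2, 4 and 8 h. Over all times Trp53 had 155 ± 7.22 CPM in the libraries labelled clone 4 (SD, n = 7), 102 ± 7.87 CPM in clone 2 (n = 8) and 192 ± 16.6 CPM in all WT libraries (n = 16). At 0 h, 2 h, 4 h and 8 h its log2 difference from WT was -0.37, -0.24, -0.38 and -0.21 in the libraries labelled clone 4, where the value at 0 h was not called (FDR 0.0992). In clone 2 it was -0.88, -0.96, -1.14 and -0.67, each called. Mdm4, an MDM2-related inhibitor of p53, was not called, at 0.25, FDR 0.342 in the library labelled clone 4 and 0.10, FDR 0.555 in clone 2 at 0 h. Bax, a mitochondrial apoptosis effector and p53 target, was at -0.37, FDR 0.114 in the library labelled clone 4 and -0.18, FDR 0.225 in clone 2. Over the hours of α-amanitin in WT, Trp53 changed by -0.14, FDR 0.0687 at 8 h, which did not pass. The amount and activity of p53 protein were not measured.

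Other genes of the pathway, from lists chosen with earlier results of these data known, were read beside the 10. The 10 were chosen in the same way, so a contrast between the lists is a description only. In pooled KO against WT at 0 h, 4 of 40 other p53 targets tested (of 41 listed) were called higher and 14 lower, with a median of -0.35, where 13.9% of all genes were called higher and 12.2% lower. Of 22 genes for p53 and its regulators, 1 was called higher and 6 lower (median 0.08), and of 16 tested genes of the BCL2 family and caspases (of 17 listed), 1 was higher and 4 lower (median -0.17). Among the called genes with the largest increases were the matrix protein Thbs1 (1.94, SE 0.507, FDR 0.0265), the autophagy gene Dram1 (1.36) and the deacetylase Sirt1 (0.64). The largest decreases were of Sfn, an adaptor of the G2 arrest (-1.66, SE 0.450, FDR 0.0286), the mTORC1 inhibitor Ddit4 (-1.33), Ppp1r13l, which encodes the p53 inhibitor iASPP (-1.15), and the Cdkn2a locus (-1.08). By clone, the other targets had 4 called higher and 7 lower in the library labelled clone 4 (median -0.12), and 5 higher and 21 lower in clone 2 (median -0.43), beside 9.28% higher and 6.60% lower of all genes for clone 4 and 22.9% higher and 22.3% lower for clone 2.

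**Figure D4:**
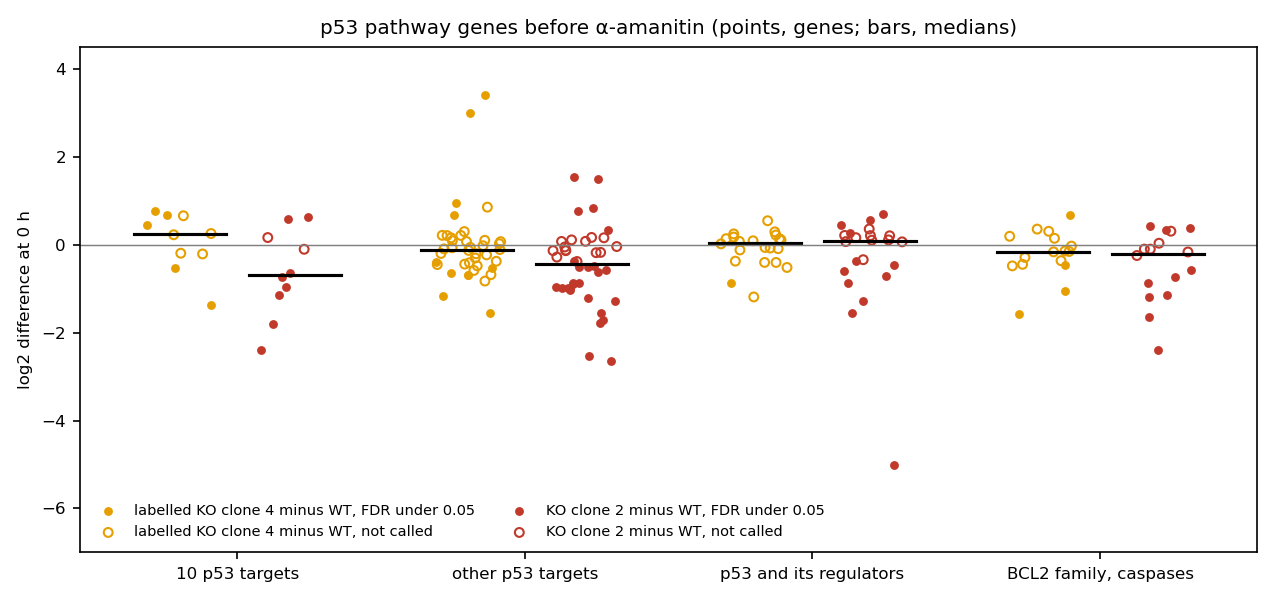
Log2 difference from WT at 0 h (y axis) of each gene of 4 lists (x axis) in the library labelled clone 4 and in clone 2; filled points have an FDR under 0.05, open points do not, and bars are medians. The median of the 10 genes is 0.24 for the library labelled clone 4 and -0.69 for clone 2; the lowest point is Trp63 in clone 2 at -5.01, a gene with at most 2.17 CPM in any library.

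In WT at 8 h against 0 h, 11 of the 40 other p53 targets were called higher and 20 lower (median -0.16), beside 6 and 1 of the 10, where 25.7% of all genes were called higher and 25.4% lower. The p53 regulators had 3 called higher and 5 lower of 22 (median -0.09), and the BCL2 family and caspases 7 and 5 of 16 (median 0.05). The largest increases were of Thbs1 (1.51, SE 0.0648, FDR 1.85e-19), the anti-apoptotic genes Bcl2 (0.76) and Bcl2l2 (0.63), and Sirt1 (0.74). The largest decreases were of Bmf, a BH3-only gene like Bbc3 (-1.02, SE 0.0769, FDR 4.82e-13), the peptide transporter Tap1 (-0.96), the phosphatase Ptprv (-0.93) and Ddit4 (-0.92).

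Across the 12 groups of line and time, the 10 genes fell into more than 1 pattern. Pearson's r of log2 mean CPM was highest between Perp and Trp53inp1 (0.948), Perp and Ccng1 (0.926), Ccng1 and Trp53inp1 (0.917) and Cdkn1a and Trp53inp1 (0.905). These genes are low in clone 2, as are Bbc3 and Mdm2. The r of Bbc3 and Mdm2 was 0.727 and 0.653 with Perp, and 0.821 and 0.758 with Trp53inp1. It was lowest between Bbc3 and Pmaip1 (-0.397). These are descriptions over 12 group means that share lines and tables. Over all genes with a mean of at least 5 CPM, the nearest patterns were those of Mcam, Crmp1 and Airn for Perp (highest r 0.995), Tpm1, Gxylt2 and Cnn1 for Ccng1 (0.991), Fam49a, B3galt1 and Col14a1 for Trp53inp1 (0.991) and Iffo2, Zc3h12c and Ripk2 for Cdkn1a (0.987). For Bbc3 they were Nup210, Col22a1 and Cyfip2 (0.97), for Plk3 Cxcl10, Specc1 and Nfkbiz (0.96) and for Mdm2 St7, Noct and Zyx (0.95). For Pmaip1 they were S1pr1, Cap1 and Oxct1 (0.912) and for Rrm2b Atl3, Xiap and Stambp (0.968).

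The authors' deposited lists of transcripts from CAPRIN1 immunoprecipitation hold 3 of the 10 genes. Ccng1, Cdkn1a and Mdm2 are in both the list named CNT vs RA, with 2170 symbols, and the list named 2I vs RA, with 2502 symbols. The other 7 are in neither. Of 41 other p53 targets, each list holds 8, and Trp53 is in the 2I list. Of the 51410 genes of the count tables, 2091 match a symbol of the CNT list and 2409 one of the 2I list. The share among genes that passed the filter was not counted. Ccng1, Mdm2 and Cdkn1a are among the more abundant of the 10, at 1090, 387 and 264 CPM in WT over all times. Trp53inp1, in neither list, had 622 CPM. Whether abundance bears on being listed was not tested. The lists give no values or direction. Ccng1, Cdkn1a and Mdm2 were called lower than WT in clone 2 at each of the 4 times, as were Bbc3, Perp and Trp53inp1, which are in neither list. The libraries labelled clone 4 were mixed. There Ccng1 was called higher than WT at 2 and 4 h (0.14 and 0.29) and Mdm2 at 4 and 8 h (0.28 and 0.29). Cdkn1a was called lower there at 2 and 4 h (-0.30 and -0.32).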

How the data were processed

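RNA-seq counts of 31 libraries came as deposited count tables of the authors, 1 per time, with whole reads per gene. Per the labels' protocols the libraries were made with the KAPA Stranded mRNA-Seq kit, but how reads were counted, and with which strand setting, is not given in the sources used here. FastQC 0.11.9, STAR 2.4.0.1, TopHat, Cufflinks, Cuffdiff, DESeq2 and the builds GRCm38 and mm10 are named, per the submitters' processing notes, without their roles. The deposited gene length, another value of the authors in these tables, was used only for levels per kilobase. The authors' deposited immunoprecipitation lists hold gene symbols without values. Of 41 labelled samples, 9 are immunoprecipitation samples, which have no values here, and 1 of 32 RNA-seq samples was not analysed here.

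Repeated lines, 110 of 51520, were dropped from each table. Each comparison of lines at a time was fitted on its own table with edgeR 4.0.16 in R 4.3.3 (limma 3.58.1): filterByExpr, TMM scaling, robust quasi-likelihood F tests, two-sided, with Benjamini-Hochberg adjustment over all genes tested and an FDR under 0.05. Pooled KO comparisons fitted KO and WT as 2 groups, and comparisons of clones fitted 3. Changes over time and their differences came from 1 fit of 12 groups of line and time over all 31 libraries, with 19 residual degrees of freedom. In both kinds of fit the 1 clone 4 library at 0 h is assumed to vary like the other groups. The code was tested on simulated data. Alternatives were library totals, DESeq2 size factors, DESeq2 1.42.0, no filter, a replicate block, a fit of 8 genotype and time groups, each line alone, and each library left out. The comparison of 8 h with 4 h and the omission of WT pairs at 0 h were added after the data were seen.

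The 10 genes, the pathway lists and the marker lists were chosen with earlier results of these data known. From the pathway lists the text names the 4 called genes that rose most and the 4 that fell most, among those averaging 5 CPM or more. Nearest patterns were the 3 genes with the highest Pearson r of log2 (mean CPM + 0.1), predicted genes left out. Some genes that these rules pick are not reported here. Promoter sequences and gene names are RefSeq's for GRCm38.p6, and 50703 gene identifiers were matched to names.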

Additional observations from a re-analysis of the deposited data

Results flagged for a closer look

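Of 40 groups of 4 WT libraries examined, 1 for each gene and time, 2 held a library that stood far from the other 3, where chance gives about 1 in 20. Ccng1 in WT at 8 h was lowest in replicate 4, at 1135 CPM, against 1188 to 1195 CPM in the others. Mdm2 in WT at 2 h was highest in replicate 3, at 493 CPM, against 441 to 447 CPM in the others.

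The libraries labelled clone 4 and those of clone 2, both named as Caprin1 KO, differed from each other in 33 of 40 tests of the 10 genes, each with the libraries labelled clone 4 higher (log2 difference, edgeR, FDR under 0.05). At 0 h the 6 differences were those of Perp (1.86), Ccng1 (0.99), Trp53inp1 (0.94), Mdm2 (0.88), Cdkn1a (0.77) and Tigar (0.56). At 2 h the 10 differences were those of Perp (2.03), Ccng1 (0.94), Cdkn1a (0.93), Bbc3 (0.92), Mdm2 (0.79), Trp53inp1 (0.76), Plk3 (0.74), Rrm2b (0.58), Pmaip1 (0.51) and Tigar (0.32). At 4 h the 8 differences were those of Perp (2.31), Ccng1 (0.96), Mdm2 (0.71), Pmaip1 (0.69), Trp53inp1 (0.65), Cdkn1a (0.63), Plk3 (0.38) and Tigar (0.33). At 8 h the 9 differences were those of Perp (2.67), Trp53inp1 (1.09), Cdkn1a (1.06), Bbc3 (0.98), Mdm2 (0.96), Ccng1 (0.93), Tigar (0.41), Plk3 (0.35) and Pmaip1 (0.28). Of all genes, 25.0%, 24.8% and 30.0% were called higher at 2, 4 and 8 h, and 48.7%, 47.6% and 58.4% in either direction. The shares at 0 h are given above. The 40 tests use the same few libraries of 1 clone each and are not independent. The transcript of the targeted gene differed between these lines too, and its part in these differences was not tested.

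The change over 8 h differed between lines for Bbc3 in the libraries labelled clone 4 minus WT (0.74) and for Rrm2b in the mean of the clones minus WT (-0.58), by the test of the difference itself.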

How the results depend on the processing

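Over the 31 comparisons the 10 genes gave 310 results, of which 161 were called and 100 lost their call under no alternative. Of 1845 alternatives of called results, 1625 kept the call and direction and 219 lost it. Of 1905 alternatives of results not called, 156 differed in sign. Library totals in place of TMM moved the median of all genes by over 0.1 (log2), to -0.14, -0.13 and -0.11 for pooled KO at 0, 4 and 8 h and to between -0.19 and -0.11 for clone 2 against WT at the 4 times. The median also moved that far for clone 4 against WT at 0 h, to -0.13. For changes from 0 h it moved to -0.12 for WT at 2 h and to -0.20 for clone 2 at 4 h. Library totals called 2 of the 10 in pooled KO at 4 h (4 with TMM), 3 for clone 4 against WT at 0 h (5), 1 for clone 2 at 2 h against 0 h (2), 3 for clone 4 at 4 h (5) and 2 for the change over 8 h of clone 4 minus WT (1). Without the filter the counts were 2 for pooled KO at 4 h, 1 for clone 2 at 2 h, and 2 each for the change over 8 h of clone 4 and of pooled KO minus WT. DESeq2 called 3 in pooled KO at 2 h (1 with edgeR), 5 for clone 4 against WT at 2 h (8), and 2 each for the change over 8 h of clone 4 and of pooled KO. The fit of 8 groups called 2, 2 and 3 in WT at 2, 4 and 8 h (5, 7 and 7), 2 in WT at 8 h against 4 h (6), and 0 for the change of pooled KO. Each line fitted alone gave 5 for clone 2 at 8 h (2) and 5 for clone 4 at 2 h (3). Counts over all genes moved as well, not always the same way. The fit of 8 groups called 1722, 5062 and 4442 genes in WT at 2, 4 and 8 h (4396, 8275 and 8097). It called 4212 in WT at 8 h against 4 h (7167) and 2 for the change of pooled KO (1269). Clone 2 alone at 8 h gave 6529 (4499). In pooled KO at 4 h, library totals called 5090 and no filter 4110 (4836). DESeq2 called 4458 in pooled KO at 2 h (4163) and 4391 for clone 4 against WT at 2 h (5739). The cause of these moves was not tested.

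Replicate numbers showed little pairing of the libraries. Residuals of same-numbered libraries correlated at -0.0959 to 0.0494 over 20 pairs of lines, with 0 above 0.1. Of 42 pairs of times, 3 were above 0.1, the highest at 0.214 for WT replicate 4 at 0 and 4 h. Residuals mirror each other in groups of 2 libraries, so pairs between such groups repeat a value and are not separate checks. The replicate block left 0, 2, 0 and 0 genes in all called in pooled KO against WT at 0, 2, 4 and 8 h, so the 0 of the 10 called at each time (5, 1, 4 and 3 without the block) says nothing particular to them. With it, clone 4 against WT at 0 h had 8 (5) and the change of clone 4 minus WT 3 (1).

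Without WT replicates 1 and 2 at 0 h the counts were 0 for pooled KO at 0 h, 8 for clone 4 at 0 h, and 2 and 0 for the change of clone 4 and of pooled KO. Without replicates 3 and 4 they were 2, 9, 5 and 6, with 6 for the change of clone 2 and 8 for WT at 2 h. The sign reversed, with a call in 3 of 4 cases, for Ccng1 in WT at 4 h (-0.17) and 8 h (-0.0069) without replicates 1 and 2, and for Bbc3 at 2 h (-0.17) and Trp53inp1 at 4 h (0.29) without replicates 3 and 4.

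With 1 library left out the counts ran from 2 to 8, 1 to 4, 1 to 4 and 0 to 4 for pooled KO at 0, 2, 4 and 8 h, 3 to 6 for clone 4 at 0 h, 1 to 2 and 0 to 2 for clone 2 over time at 2 and 8 h, 1 to 2 and 3 to 5 for clone 4 over time at 2 and 4 h, and 0 to 1, 0 to 3 and 0 to 2 for the change over 8 h of clone 2, clone 4 and pooled KO minus WT. In the other comparisons they stayed within 1.5 times the full count. Rrm2b, with 21 counts in its lowest library, is where depth limits most.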
